A study of Mus musculus with 2 samples.

Results

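The mitosis genes examined here were chosen by name, from a list of 41 names of genes that drive or carry out chromosome segregation. Of these names, 38 occurred among the gene names of the array, on 64 probes of 41174, and the whole array held 27962 gene names. Cdk1 is present under its older name Cdc2a, so the list covers 40 distinct genes, and Ndc80 and Nuf2 are on the array under the older names Kntc2 and Cdca1 and are given separately. The rule itself uses names and no measured value, although the list was drawn up with earlier results of these data known.

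Gene expression was measured in 2 subcutaneous tumours that grew from RMS3 cells of mouse, described in the labels as a PRMS line with neither the abbreviation spelled out nor a genotype given. In each case 1000000 cells in 200 µl of PBS went under the skin of a C57BL/6J male, and 2 weeks later the tumour was collected. Both tumours come from the same cell line, form 1 group with no other treatment named, and there is no cultured or uninjected control. The labels do not say whether the cell line is a clone or whether animals were pooled, and one protocol field calls the harvested tumours metastatic. Calling them tumour 1 and tumour 2 implies no order, and since every difference sets 1 tumour against 1 other, it has no replicate check and no p-value is given.

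Mitosis is driven by Cdk1 bound to A-type and B-type cyclins, which together with the Polo and Aurora kinases condenses chromosomes and builds the spindle. The spindle checkpoint delays separation until every kinetochore is attached, after which the anaphase-promoting complex (APC/C) with its activator Cdc20 marks securin and cyclin B for destruction, separase cuts cohesin, and the cell divides. The transcripts of these genes rise late in the cell cycle, so in a bulk tumour they stand for the dividing cells of every type in it, and fewer dividing cells and less RNA per cell cannot be told apart.

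The 2 arrays are single-colour, 1 for each tumour. Levels are log2 processed signals minus the array's 75th percentile. They compare the tumours for a given probe and do not rank genes against each other. Of 43379 non-control spots, 62.3% on array 1 and 66.1% on array 2 were well above background, the scanner software's call of a signal that stands out from the background, and the lowest such level was -5.79 and -6.19. Array 1 carries 1055 outlier-flagged spots in bands, against 43 on array 2, and 27.8% of spots lie within 2 rows and columns of a flag of array 1 or of a spot of high background on array 2. Of the 64 mitosis probes 22 lie there, including all probes of 10 genes. The main values rest on probes away from flags, and values beside flags are marked as such and set on the same scale. Among unflagged repeat spots away from flags the standard deviation was 0.23 on array 1 and 0.13 on array 2, which gives 0.26 for a difference between the arrays. This covers spot noise within an array only.

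**Figure D1:**
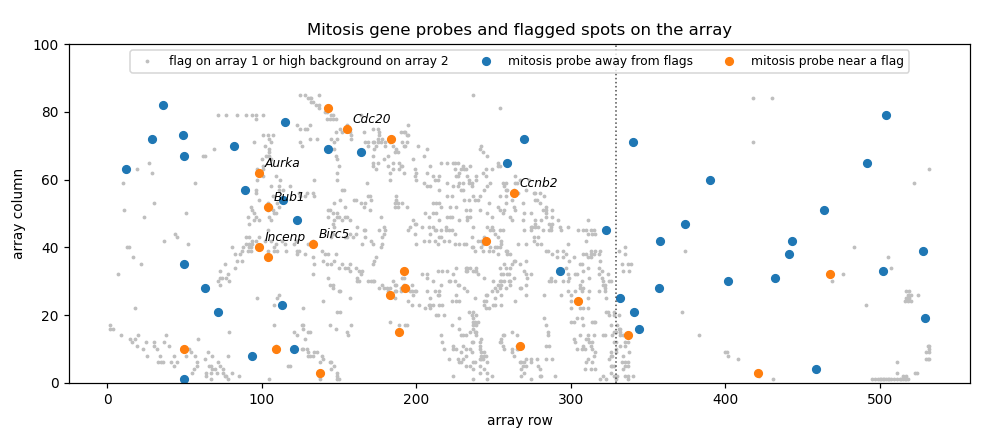
Row and column of each mitosis gene probe on the array (blue away from flags, orange near a flag) with the flagged spots of array 1 and the spots of high background on array 2 in grey. The dotted line marks row 329, and 95% of the flagged spots lie in the rows up to it. The 22 orange probes include those of Bub1, Ccnb2, Cdc20, Incenp, Aurka and Birc5.

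Mitosis genes were detected broadly in both tumours. Of the 38 genes found, 35 were well above background on both arrays on at least 1 unflagged probe, against 64.8% of the 21589 gene names with a symbol. The other 3, Cdc20, Incenp and Pttg1, have a single spot each, which was well above background on both arrays but flagged on array 1. By probe, 55 of 64 were well above background on both arrays and 8 on neither, so genes with several probes, such as Cdk1, Cenpa, Cenpf, Espl1 and Top2a, hold both a detected and an undetected probe. The older-named probes of Ndc80, a rod-shaped kinetochore protein, and of its partner Nuf2 were detected too. Ndc80 measured -1.35 in tumour 1 against -1.39 in tumour 2, and Nuf2 measured 0.03 and -0.12.

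The promoters of mitosis genes share sequence features that the choice of genes did not use. Many late cell cycle genes are known to carry NF-Y boxes, bound by the CCAAT-binding factor NF-Y, and a cell cycle homology region (CHR), bound by the MuvB complex, which represses them in resting cells as part of DREAM and activates them with B-Myb and Foxm1. RefSeq promoters on GRCm38.p6, 300 bases from 250 before to 50 after the annotated start, were matched for 33 of the 40 genes (36 promoters). The NF-Y box was searched as CCAAT and the CHR as TTTGAA, each on both strands (ATTGG and TTCAAA), and matches were counted for each motif on its own, whether or not they overlapped. An NF-Y box was present in 29 of 36 promoters (80.6%), against 37.4% of all 32851 promoters, and 21 (58.3%) held at least 2, against 11.7%. A CHR match was present in 28 (77.8%), against 17.9%, and both motifs in 25 (69.4%), against 6.95%. In 19 promoters of the DNA replication and G1/S genes listed for comparison, NF-Y boxes occurred in 13 (68.4%) and a CHR match in 1 (5.26%). These shares were not tested, and a match is a description of letters, not of binding.

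The upstream 200 bases of 6 members, the first listed of each role where the table held its promoter, show how these motifs are spaced. They run 5′ to 3′ on the strand of the gene and end at the base before the annotated start, with NF-Y boxes and CHR matches in capitals.
Cdc20 (chr4:118437344-118437543, minus strand): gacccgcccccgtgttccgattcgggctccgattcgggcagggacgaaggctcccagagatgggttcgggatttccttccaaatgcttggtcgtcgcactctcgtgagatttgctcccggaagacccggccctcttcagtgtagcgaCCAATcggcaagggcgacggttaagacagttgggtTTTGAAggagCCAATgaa
Kif11 (chr19:37376182-37376381, plus strand): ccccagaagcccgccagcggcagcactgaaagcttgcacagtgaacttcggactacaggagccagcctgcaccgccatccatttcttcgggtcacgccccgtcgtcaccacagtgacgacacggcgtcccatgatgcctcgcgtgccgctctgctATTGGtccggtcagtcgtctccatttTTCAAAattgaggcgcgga
Bub1 (chr2:127831860-127832059, minus strand): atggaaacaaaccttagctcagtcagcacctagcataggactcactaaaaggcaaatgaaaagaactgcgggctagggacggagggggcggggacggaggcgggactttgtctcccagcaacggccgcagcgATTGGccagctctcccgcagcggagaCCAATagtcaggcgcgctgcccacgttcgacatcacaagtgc
Aurka (chr2:172370571-172370770, minus strand): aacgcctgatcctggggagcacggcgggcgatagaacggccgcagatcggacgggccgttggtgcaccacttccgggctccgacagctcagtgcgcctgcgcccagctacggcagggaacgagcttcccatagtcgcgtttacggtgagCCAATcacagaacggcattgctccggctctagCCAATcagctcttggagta
Cenpa (chr5:30666686-30666885, plus strand): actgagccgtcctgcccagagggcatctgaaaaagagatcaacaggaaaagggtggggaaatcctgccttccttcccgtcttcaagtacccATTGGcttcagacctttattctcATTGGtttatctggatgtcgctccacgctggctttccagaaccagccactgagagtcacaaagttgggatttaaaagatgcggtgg
Mki67 (chr7:135716380-135716579, minus strand): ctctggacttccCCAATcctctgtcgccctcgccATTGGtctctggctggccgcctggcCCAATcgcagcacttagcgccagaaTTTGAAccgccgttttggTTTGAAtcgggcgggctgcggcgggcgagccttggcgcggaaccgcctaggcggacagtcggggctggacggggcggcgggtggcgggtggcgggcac

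Positions give the first base of a match relative to the annotated start. In Cdc20, the activator of the APC/C, a CHR at -18 lies between NF-Y boxes at -53 and -8. In Kif11, a spindle motor, an NF-Y box at -45 is followed by a CHR at -19, both in the inverted form. The kinase gene Aurka has NF-Y boxes at -51 and -19, and the centromere histone gene Cenpa at -109 and -86. Their CHR matches, at 33 and 17, lie after the start and outside the printed stretch. Bub1 has NF-Y boxes at -68 and -42 and no CHR match in its window. Mki67 holds 3 NF-Y boxes, at -188, -166 and -141, and CHR matches at -116 and -98. Over the first promoter of each of the 33 genes, the median position of the 60 NF-Y boxes was -67.5 and that of the 32 CHR matches -10.0 relative to the annotated start.

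**Figure D2:**
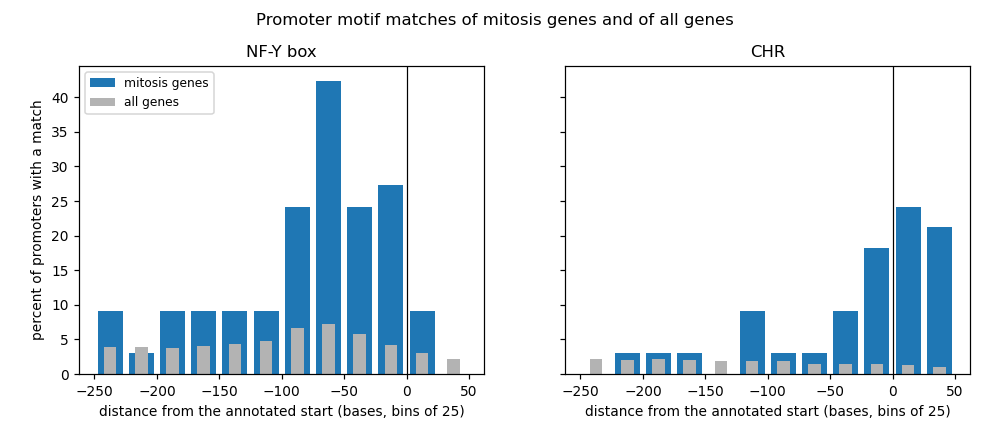
Percent of promoters with a match starting in each 25-base bin, by distance from the annotated start, for the NF-Y box (left) and the CHR (right), in 33 mitosis genes (blue) and in all 27025 genes (grey), with the first promoter of each gene. The NF-Y box is most frequent from 75 to 50 bases before the start (42.4% of mitosis genes, 7.28% of all genes) in both sets; in mitosis genes the CHR is most frequent in the 25 bases after the start (24.2%, against 1.25% of all genes, whose highest bin is the one farthest upstream, 2.19%).

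Away from flags 28 genes could be measured, and none was 2-fold or more apart, where among all 13647 genes 3.77% passed 2-fold towards tumour 1 and 2.59% towards tumour 2. With all unflagged spots, where 6.71% of 16376 genes passed 2-fold towards tumour 1 and 4.96% towards tumour 2, 1 of 35 mitosis genes did so (Bub1, towards tumour 2). Of the 7 mitosis genes with 2 or more detected probes away from flags, none had probes 2-fold apart in their difference, against 10.2% of 3627 genes, and with all spots 2 of 14 did, against 20.9%. Differences (tumour 2 minus tumour 1, log2) ran from -0.35 to 0.72. Their median was 0.17, against -0.01 over all genes. Of the 28 genes 20 were higher in tumour 2, against 49.2% of all genes. On unscaled signals, where all genes shifted to -0.16, 14 of them were, against 34.2% of all genes. On the main scale 25 (89.3%) lay within 0.52, or 2 such errors, against 75.7% of all genes. The 3 beyond it were Ccnb1, Cdc25c and Kif11, all towards tumour 2. The spread of the differences was 0.27 (SD over genes) against 0.55. Among the brighter probes only, the 21 mitosis genes left had a median of 0.13 and a spread of 0.21, against 0.02 and 0.45 for 7445 genes. When the normexp background correction was used, which moved all genes by 0.69, the mitosis median (0.26) lay below that of all genes. Refitting it without the spots of high background gave 0.12 against -0.01.

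**Figure D3:**
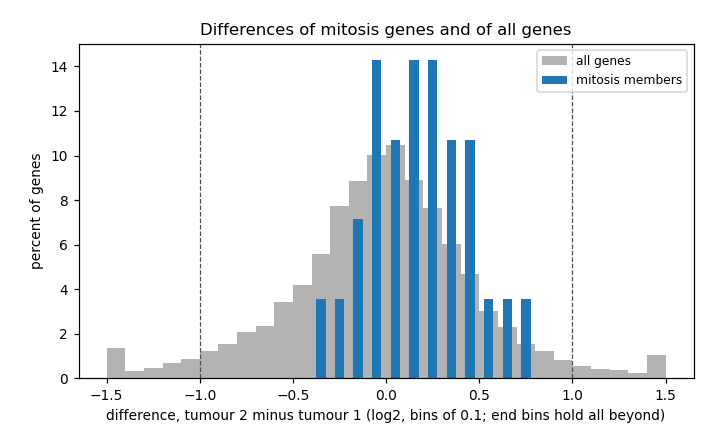
Percent of genes in each bin of the difference between the tumours (log2, tumour 2 minus tumour 1) for the 28 mitosis genes measured away from flags (blue) and all 13647 genes (grey); dashed lines mark 2-fold. The mitosis genes lie between -0.35 and 0.72.

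Among the cyclins and the regulators of entry into mitosis, all 3 genes with a value away from flags were higher in tumour 2. Of all genes 49.2% were. The sign of these 3 genes held under each scaling tried. With normexp, however, Ccnb1 (0.25) and Foxm1 (0.27) lay below the median of all genes (0.69), and Cdc25c (2.29) above it. Refitted without the spots of high background, the 3 genes gave 0.71, 0.40 and 0.50, with all genes at -0.01. The transcription factor Foxm1, which activates late cell cycle genes, measured -0.28 in tumour 1 against 0.16 in tumour 2, a difference of 0.44, with surrounding spots at -0.08. Cdc25c, a phosphatase that activates Cdk1, lay at -3.62 and -2.90, a difference of 0.72, on 1 of its 2 probes. Its other probe was well above background in tumour 2 alone. With Ccnb1, described next, the median of the 3 genes was 0.69.

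The mitotic cyclin Ccnb1 was measured by 3 probes, 1 of them away from flags. That probe measured 0.19 in tumour 1 against 0.88 in tumour 2. Its difference was 0.69, and the 24 detected spots within 3 rows and columns had a median difference of 0.56. The probes beside flags gave -0.14 and 0.81, with surrounding spots at 0.31 and 1.11. Ccnb2, the related B-type cyclin, has a single probe beside a flag, at 1.72 and 2.48, a difference of 0.76 where the surrounding spots had 0.78. Cyclin A2 (Ccna2) lay at 1.90 and 1.55 beside a flag. Cdk1, the kinase partner of these cyclins, lay at 1.69 and 1.96, again beside a flag, with the other probe above background in neither tumour. The part of the array surface in these cyclin differences was not tested.

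The mitotic kinases and Tpx2 differed by less than 1 repeat-spot error on the main scale. Plk1, the Polo kinase of entry and spindle assembly, measured 1.78 in tumour 1 against 1.99 in tumour 2. The centrosome kinase Nek2 lay at 0.01 and -0.12. Tpx2, the spindle factor that activates Aurora A, lay at 1.16 in both. Aurora A itself (Aurka), beside a flag, lay at 3.15 and 3.02. With normexp, where all genes lay at 0.69, Plk1 turned to -0.44 and Tpx2 moved to -0.54. Refitted without the spots of high background, they gave 0.19 and -0.02. With all spots, where all genes lay at -0.21, Plk1 was at -0.03, Tpx2 at -0.23, Nek2 at -0.37 and Aurka at -0.36.

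The chromosomal passenger complex corrects faulty attachments and later guides cytokinesis, with Aurora B as its kinase. Aurkb measured -0.94 in tumour 1 against -0.57 in tumour 2, a difference of 0.37. Cdca8 (borealin), a targeting subunit, lay at 2.61 and 2.98, a difference of 0.38, and its second detected probe beside a flag gave 0.55. Survivin (Birc5), another targeting subunit, lay at 4.29 and 4.33 beside a flag. On the main scale survivin differed by less than 1 repeat-spot error, while Aurkb and Cdca8 were higher in tumour 2 by 1 to 2 such errors. With normexp, where all genes lay at 0.69, Aurkb moved to 0.81 and Cdca8 turned to -0.48, and the refit without the spots of high background gave 0.28 and 0.32. With all spots they were at 0.13 and 0.23, and on unscaled signals at 0.22 and 0.23. The scaffold Incenp lay at 1.24 and 3.86 on its only spot, which is flagged as an outlier on array 1, so this gap gives no usable difference.

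Of the 4 spindle checkpoint genes measured away from flags none was higher in tumour 2, where 49.2% of all genes were. Of these 4, 3 differed by less than 1 repeat-spot error. With normexp, where all genes lay at 0.69, Bub1b, Bub3 and Ttk turned to 1.11, 1.17 and 2.19. Bub1b turned to 0.01 with loess, and Mad2l1 to 0.49 with all spots. Refitting normexp without the spots of high background gave 0.04 for Bub1b and 0.01 for Mad2l1, and -0.14 and -0.16 for Bub3 and Ttk. Bub1b (BubR1), a component of the complex that inhibits the APC/C, measured -1.63 in tumour 1 against -1.64 in tumour 2. Bub3, its partner, differed by -0.19 over 2 probes away from flags, which gave -0.36 and -0.02. A further detected probe of Bub3, beside a flag, gave 0.15, where the surrounding spots had -0.03. Ttk (Mps1), the kinase that starts the checkpoint, lay at -3.61 and -3.95. Mad2l1 (Mad2), which binds Cdc20, lay at 0.41 and 0.37 on the probe away from flags. Its other probe, beside a flag, gave a difference of 1.49 where the surrounding spots had 0.85. The 2 probes of this gene thus lie more than 2-fold apart in their difference.

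Bub1, the checkpoint kinase at the kinetochore, gave the widest gap between the tumours of any unflagged mitosis probe. Its only probe measured -2.80 in tumour 1 against 0.31 in tumour 2, a difference of 3.11, or 8.64-fold. This probe is 1 row or column from a flag, and the 14 detected spots within 3 rows and columns had a median difference of 2.90. The neighbouring spots, which belong to other genes, thus show nearly the same gap, and no other probe of Bub1 was available to check it.

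**Figure D4:**
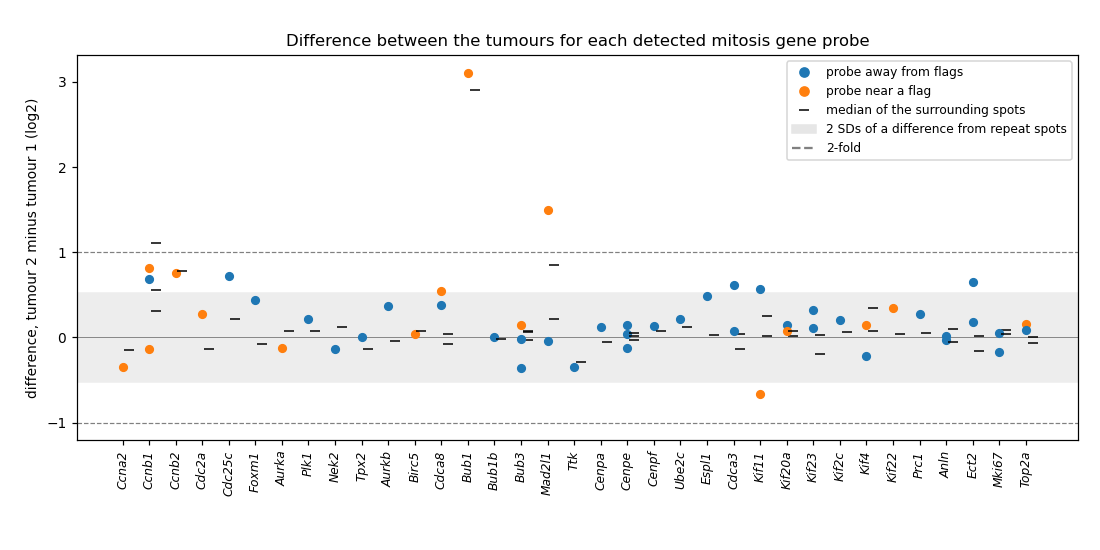
Difference between the tumours (log2, tumour 2 minus tumour 1) for each unflagged mitosis probe well above background on both arrays, by gene in order of role; blue probes lie away from flags, orange probes near one, and black dashes give the median of the spots within 3 rows and columns. The grey band is 2 repeat-spot errors (0.52) and the dashed lines are 2-fold; Bub1 (3.11) and 1 probe of Mad2l1 (1.49) lie beyond them, both near a flag.

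Centromere and kinetochore genes differed by less than 1 repeat-spot error on the main scale. Cenpa, the histone H3 variant that marks the centromere, measured 0.62 in tumour 1 against 0.74 in tumour 2. Cenpe, a kinetochore motor that brings chromosomes to the spindle equator, was measured by 3 probes, whose differences were 0.04, 0.14 and -0.13. Cenpf, a large kinetochore protein of late cell cycle, lay at 1.21 and 1.35. The 3 genes lay between 0.04 and 0.13. With normexp, where all genes lay at 0.69, Cenpa turned to -0.28 and Cenpf to -0.41, and Cenpe moved to 0.91. Refitted without the spots of high background, they gave 0.09, 0.07 and 0.07. With all spots they were at -0.12, -0.10 and -0.19, and on unscaled signals at -0.03, -0.02 and -0.11.

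Of the genes that act in destruction and separation, Ube2c, the APC/C's ubiquitin-conjugating enzyme, measured 1.30 in tumour 1 against 1.51 in tumour 2. Separase (Espl1) lay at -1.81 and -1.32, a difference of 0.49. Cdca3, a factor that promotes mitotic entry by degradation of Wee1, differed by 0.34 over 2 probes, which gave 0.61 and 0.08. Securin (Pttg1), the inhibitor of separase, lay at 3.80 and 3.56, and Cdc20 at 2.24 and 4.23, each on a single spot flagged on array 1. The 3 genes with usable spots leaned towards tumour 2 (median 0.34), as did 49.2% of all genes. Ube2c was at -0.02 with all spots and at -0.44 with normexp, where all genes lay at 0.69. The normexp refit without the spots of high background gave 0.12 for Ube2c. For Cdc20 and Pttg1 no usable difference exists.

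Kinesins and cytokinesis genes made up the largest role, with 8 of 9 genes measured away from flags and a median of 0.21. Of these 8, 6 were higher in tumour 2, where 49.2% of all genes were. They include Kif11, described below, whose direction depended on the probe. With normexp, where all genes lay at 0.69, Prc1 turned to -0.48 and Kif20a to -0.65, and Anln to 0.96. Refitted without the spots of high background, they gave 0.14, 0.12 and 0.04. With all spots Kif23, Kif2c, Kif20a and Kif11 turned to -0.02, -0.04, -0.12 and -0.28, and on unscaled signals Kif20a was at -0.01. Prc1, which bundles the central spindle, measured 1.67 in tumour 1 against 1.94 in tumour 2. Kif23, the motor of centralspindlin, differed by 0.21 over 2 probes, and Kif20a, which carries the passenger complex to the midzone, by 0.14. Ect2, the exchange factor that activates RhoA for the cleavage furrow, gave 0.18 and 0.65 on its 2 probes, while anillin (Anln), the scaffold of that furrow, gave 0.02 and -0.03. Kif2c, a microtubule depolymerase at the centromere, lay at -2.60 and -2.40. The chromokinesin Kif4 gave a difference of -0.22 away from flags and 0.15 on its probe beside one, and the chromokinesin Kif22 lay at 2.93 and 3.27 beside a flag.

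Kif11 (Eg5), the motor that pushes the spindle poles apart, depended on the probe. The probe away from flags measured -3.75 in tumour 1 against -3.18 in tumour 2, a difference of 0.57. A dimmer probe beside a flag lay at -5.35 and -6.01, a difference of -0.66, close to the lowest level called well above background. The remaining probe was above background in neither tumour. The direction for Kif11 is therefore not settled by these arrays.

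The proliferation marker Mki67, which coats mitotic chromosomes, differed by -0.17 and 0.05 on its 2 probes, both far from any flag. Top2a, the topoisomerase that untangles sister chromatids, measured -2.91 in tumour 1 against -2.82 in tumour 2 away from flags, and its probe beside a flag differed by 0.16. Both differences were under 1 repeat-spot error. With normexp, where all genes lay at 0.69, Top2a moved to 1.99 and Mki67 to -0.32. The refit without the spots of high background gave 0.11 and -0.15. Top2a moved to -0.30 without a detection filter, and Mki67 to -0.29 with all spots.

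**Figure D5:**
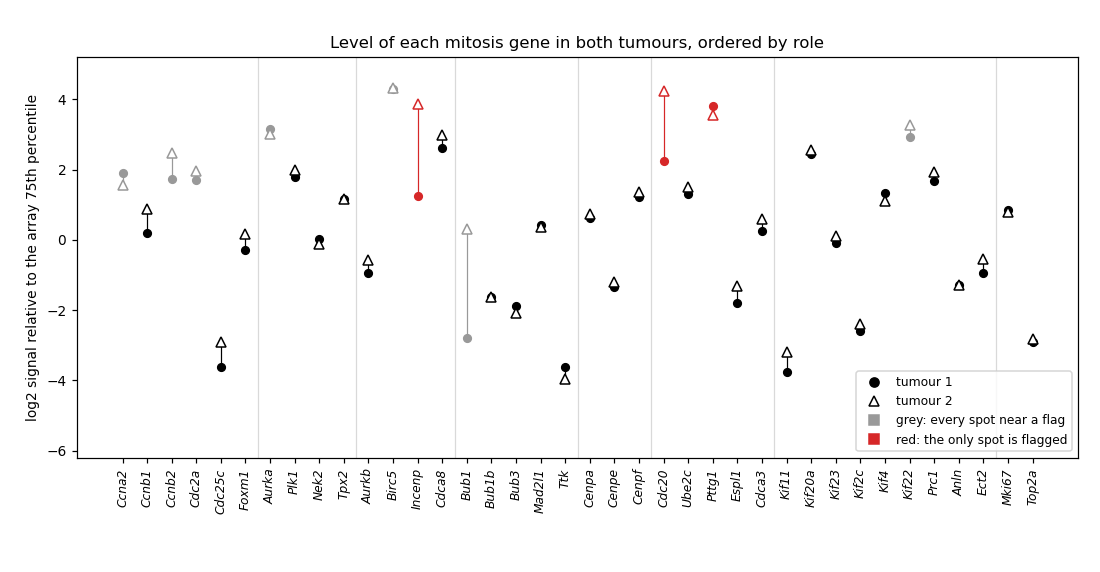
Level of each mitosis gene (log2 signal relative to the array's 75th percentile; median over its detected probes) in tumour 1 (filled circles) and tumour 2 (open triangles), ordered by role with grey lines between roles. Black genes were measured away from flags, grey genes have every probe near a flag, and the red genes Incenp, Cdc20 and Pttg1 have a single flagged spot; heights are not comparable between genes.

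The 28 measured genes were also counted in the lower rows, those numbered beyond row 329 and past most flagged spots, where 14 of them had a value. There the median was 0.21 against -0.01 over 8234 genes, and 10 of 14 were higher in tumour 2, against 48.2% of genes. None reached 2-fold, where 3.76% of genes did so towards tumour 1 and 1.97% towards tumour 2. Probes beside a flag were kept in these rows. Such a probe put Kif11 at -0.08 in place of 0.57, and Cdca8 at 0.43 in place of 0.38. A check added after the data were seen subtracted from each probe the median difference of the spots within 10 rows and 5 columns. It left a median of 0.11, with Ccnb1 at 0.38 in place of 0.69. Of the 28 genes 19 were then higher in tumour 2, against 48.3% of all genes.

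The wider mitotic machinery outside the list showed no common direction. Of 115 further mitosis genes in 8 lists, 109 had a probe, 105 passed detection in both tumours and 88 had a value away from flags. Their median was -0.02, with 43 higher in tumour 2 and 45 in tumour 1, and 4 passed 2-fold, 3 of 88 towards tumour 2 and 1 of 88 towards tumour 1, where 2.59% and 3.77% of all genes did. Condensin genes, which compact chromosomes, all lay within 0.52 (6 of 6, against 75.7% of all genes), among them Smc2 at -0.19 and Smc4 at -0.07. Cohesin genes, which hold sister chromatids, had a median of -0.18, and 8 of 11 (72.7%) lay within 0.52. Smc1a was at 0.33, Smc3 at 0.14, Rad21 at -0.18 and Stag1 at -0.24. The 18 other centromere and kinetochore genes had a median of 0.02, and the 13 APC/C genes one of -0.08, with Anapc1 at -0.29, Anapc2 at 0.06 and Anapc4 at -0.12. Other entry kinases, phosphatases and cofactors had a median of -0.02, with Wee1, the kinase that restrains Cdk1, at -0.05 and Pkmyt1, a second such kinase, at 0.37. Spindle, motor and midbody genes had a median of 0.16 and the further checkpoint genes one of 0.07.

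The 4 genes at 2-fold or more, a count that in both directions together is no higher than these shares, were Mybl2, Vrk1, Kif15 and Cdc26. Mybl2 (B-Myb), the activator that joins MuvB at CHR promoters, measured -3.74 in tumour 1 against -0.94 in tumour 2 on its only probe, a difference of 2.80 or 6.94-fold. That probe is 3 rows or columns from a flag, just outside the margin, and its surrounding spots had a median of 0.20. The histone kinase Vrk1 gave 2.95 on a probe equally close to a flag, where the surrounding spots had 1.39, and 0.42 on a probe farther away. Kif15, a spindle kinesin, lay at -5.42 and -4.07, with tumour 1 near the lowest level called, on 1 of its 3 probes. Cdc26, an APC/C subunit, lay at -2.63 and -3.83 on 1 of its 4 probes. Another 2 were not detected, and the last, flagged on array 1, ran the other way, with processed signals of 1920 and 9384. Of the other DREAM, MuvB and NF-Y factors, Lin9 was at -0.10, Lin37 at -0.22 and Lin52 at -0.05.

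DNA replication and G1/S genes, the other arm of the cell cycle programme, had a median difference of 0.14 over 18 genes. Of these 10 were higher in tumour 2, against 49.2% of all genes, and 8 in tumour 1. None was 2-fold apart, where 3.77% of all genes were towards tumour 1 and 2.59% towards tumour 2. Differences ran from -0.28 to 0.56. The first listed with a value, the helicase subunits Mcm2 at 0.25, Mcm3 at 0.50 and Mcm5 at 0.18, all lay above the median of 0.14. The difference between this median and the 0.17 of the mitosis genes was not tested.

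Markers of cell types that could contribute dividing cells moved in both directions. Of 4 keratinocyte markers, Krt5 and Krt14 were higher in tumour 2 by 3.55 and 3.65 (summed signal 0.0787 and 0.967 times the 75th percentile). Krt1 ran the other way, well above background in tumour 1 alone, and Krt10 had no value away from flags. Erythroid markers were higher in tumour 2 in 3 of 3 measured cases (summed signal 23.5 and 40.0), as were 4 of 6 skeletal muscle markers (0.926 and 1.49). Of all genes 49.2% were. The muscle markers Des (1.25) and Myh3 (1.08) passed 2-fold towards tumour 2, where 2.59% of all genes did, and 2 of the 6 went the other way. All 4 endothelial markers leaned towards tumour 1 (3.61 and 2.08), as did all 4 fibroblast markers (101 and 92.5), while macrophage markers were at 2.54 and 2.40. Of the fibroblast markers only Dcn (-1.11) passed 2-fold, where 3.77% of all genes did so towards tumour 1. The muscle regulators Myod1 and Myog were above background in both tumours, Myod1 at -5.24 and -5.59 and Myog at -2.24 and -2.11. Of the T cell markers only Cd3e was detected, and Cd3d, Cd4 and Cd8a were well above background on neither array. Of 4 B cell markers 2 were detected, 1 of them away from flags, with a difference of 0.11. The part of these cells in the mitosis gene levels was not tested.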

How the data were processed

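RNA from each of 2 tumours was labelled with Cy3 and hybridised to its own Agilent mouse array. Per the file headers, the deposited intensity columns, that is processed and mean signals and local backgrounds, come from Agilent Feature Extraction 9.1.3.1, with spatial and multiplicative detrending and surrogates for low values; the submitters' processing notes name version 8. No scaling between arrays is recorded, and the deposited value table equals the processed signal intensity at all 45018 spots (column medians 63.3 and 67.5). 

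Processed signals were taken to log2 minus the array's 75th percentile (1000 and 901.9) over usable non-control spots. Outlier spots and spots within 2 rows and columns of a flag of array 1, or of a spot of array 2 with local background above 100, were left out. Detection needed 50% or more of a probe's usable spots well above background. A gene took the median difference of its detected, unsaturated probes. Gene names follow the file of tumour 2, and listed genes outside the members were also matched by accession to RefSeq symbols of GRCm38.p6. The build of the probe design is not given in the sources used here. The members, lists and settings were chosen with earlier results of these data known. All members could be named; of other lists, the first 4 genes and those at least 2-fold apart. No test was run. The procedure was tested on simulated data. Both simulated arrays took their signals and outlier flags from array 2, so the test did not cover the flagged bands of array 1. Alternatives were normexp (offset 50), quantile, loess (span 0.3) and other scalings, detection and probe rules. Software was Python 3.11.15 and, for normexp, limma 3.58.1 under R 4.3.3. The number of arrays limits the precision.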

Additional observations from a re-analysis of the deposited data

How the results depend on the processing

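In 13 alternative settings, and in 1 chosen after seeing the data, no mitosis gene was at least 2-fold higher in tumour 1, and the count at least 2-fold higher in tumour 2 stayed at 0 except in 3 settings. With all unflagged spots it was 1 (Bub1, beside a flag), without a detection filter 1 (Cdc25c), and with normexp 8, where 5981 of 13647 genes passed. The count of detected genes was 28 in the main setting and 14 in the lower rows, which hold fewer probes. Leaving out either replicate could not change the 28, since every gene with a probe away from flags was already detected on both arrays. The median difference ran from -0.04 (all spots) and 0.02 (unscaled values), where all genes lay at -0.21 and -0.16, to 0.26 (normexp, all genes at 0.69). Relative to all genes it was 0.17 in the main setting, 0.17 with all spots and -0.44 with normexp. With normexp refitted without the spots of high background it was 0.13, with all genes at -0.01. Of the 28 genes 14 were higher in tumour 2 with unscaled values, against 34.2% of all genes. With normexp 16 of them were, against 64.5% of all genes, and with the refit 22 of them, against 49.0%. The cause of the normexp shift was not tested. No paired analysis was possible because the tumours form 1 group.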
